A study of Mus musculus with 24 samples.

Results

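The 10 genes described here mark tissue macrophages and the machinery of MHC class II antigen presentation, and they were followed through RNA sequencing of mouse adipose tissue. These members were chosen by symbol: *Csf1r*, *Adgre1*, *Mrc1*, *Cd68* and *Lyz2* for macrophages, *C1qa* and *C1qb* for complement component C1q, and *Cd74*, *H2-Aa* and *H2-Ab1* for class II. All 10 were found among the 54232 genes of the count table and all 10 passed the filter on low counts, which left 26116 genes. The 24 male C57BL6 mice, 10 weeks old by the description of the series, formed 4 groups of 6 with 1 library per mouse. Every mouse carried an intraperitoneally injected lentivirus with an adiponectin promoter, which is active in adipocytes. In Control and PNx it drove green fluorescent protein (GFP), and in NaKtide and PNx+NaKtide it drove NaKtide linked to GFP. NaKtide is a fragment of the Na,K-ATPase, meant to interrupt its signalling through the kinase Src. Control and NaKtide mice had a sham operation, and PNx and PNx+NaKtide mice had a 5/6 partial nephrectomy, a model of renal failure. The comparison of PNx with Control asks what renal failure does to the tissue, and that of PNx+NaKtide with PNx asks what the peptide in adipocytes changes.

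Macrophages are the most abundant immune cells of adipose tissue and depend on signals through the receptor encoded by *Csf1r*. In lean tissue they scavenge debris and store iron, while in obesity and other metabolic disease they can gather around dying adipocytes. C1q, assembled from 3 kinds of chain, starts the classical complement cascade and is made mainly by macrophages. MHC class II molecules pair an alpha chain (*H2-Aa*) with a beta chain (*H2-Ab1*), are escorted by the invariant chain (*Cd74*), and display peptides from engulfed material to helper T cells. Macrophages, dendritic cells and B cells all carry them.

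Of the 10 genes, 5 had an entry in the table of RefSeq promoters (GRCm38.p6). For 3 of these the window, the 250 bases before the gene's start, lay outside the annotated span of the gene itself. Overlap with other genes was not checked. All 3 such windows are shown, and none was chosen by the levels of its gene. Over the libraries *Cd68* was lowest in PNx 1, 2 and 3, *C1qb* was not, and *H2-Aa* was near 0 outside a few libraries. Capitals mark the pentamer CCAAT (reverse ATTGG), bound by NF-Y, the hexamer GAGGAA (reverse TTCCTC), a core read by the macrophage factor PU.1, and the octamer TGACGTCA, the cyclic AMP response element that also resembles the X2 box of class II promoters. The octamer was added to the search after the sequences had been seen.
Cd68 promoter, chr11:69666171-69666420, minus strand: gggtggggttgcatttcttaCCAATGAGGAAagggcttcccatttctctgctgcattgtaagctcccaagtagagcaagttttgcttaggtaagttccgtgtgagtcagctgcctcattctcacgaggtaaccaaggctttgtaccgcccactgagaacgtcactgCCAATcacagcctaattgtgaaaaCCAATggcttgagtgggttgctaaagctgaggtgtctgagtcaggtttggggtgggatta
C1qb promoter, chr4:136886201-136886450, minus strand: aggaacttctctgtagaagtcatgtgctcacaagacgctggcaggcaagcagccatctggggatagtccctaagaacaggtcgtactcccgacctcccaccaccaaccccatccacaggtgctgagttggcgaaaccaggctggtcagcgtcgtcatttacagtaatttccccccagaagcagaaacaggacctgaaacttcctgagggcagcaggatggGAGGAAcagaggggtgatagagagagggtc
H2-Aa promoter, chr17:34287824-34288073, minus strand: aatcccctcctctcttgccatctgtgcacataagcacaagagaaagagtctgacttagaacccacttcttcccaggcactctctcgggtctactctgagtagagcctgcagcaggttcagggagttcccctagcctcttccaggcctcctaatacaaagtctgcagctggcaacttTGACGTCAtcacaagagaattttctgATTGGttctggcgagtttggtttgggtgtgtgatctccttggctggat
The *Cd68* window held 3 copies of CCAAT and 1 of GAGGAA directly behind the first of them. The *C1qb* window held GAGGAA beginning 30 bases before the start and no CCAAT. In the *H2-Aa* window TGACGTCA began 74 bases and ATTGG 48 bases before the start, and GAGGAA was not among its letters. Of 32851 promoter windows of the same length, 33.8% held CCAAT, 23.3% held GAGGAA and 1.55% held TGACGTCA on either strand. A match describes the letters only.

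Total counts per library ranged from 679250 to 2979505, so that 3 counts, the most that a count of 0 allows, stood for 0.739 to 5.91 CPM (counts scaled to a common total after TMM adjustment). This limit covers counting error only. Genes with exon bases covered by an opposite-strand gene are 16.8% of the table and held 79.9% of all counts, although the libraries were made with a stranded kit. The minus-strand mitochondrial mRNA mt-Nd6 had 21 (PNx 6) to 194 (Control 4) times as many counts per kb as the 12 plus-strand mRNAs. *Actb*, a highly expressed gene of every cell without such an overlap, stood at only 25.5 to 233 CPM. The strand setting of the counting is not given in the sources used here, so the values below may hold only part of the reads of a gene, or reads of the gene opposite to it. A group of 5 libraries stood apart. PNx 1, 2 and 3 had scores of 234, 200 and 191 on the first principal component (44.8% of the variance), against 77.8 for the next library. PNx 6 and NaKtide 6 had 6730 and 5130 CPM summed over 12 adipocyte markers, against 108 to 1110 CPM in the other 22 libraries, and epididymis markers (12 genes) were lowest in the 5 libraries that stand apart, at 17.4 CPM in NaKtide 6, 19.4, 190 and 548 CPM in PNx 1, 2 and 3 and 97.6 CPM in PNx 6, against 707 to 2030 CPM in the other 19. The part of this tissue in the members' values was not tested. Fewer cells of a type and less RNA per cell cannot be told apart in such tissue.

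*Csf1r* (chr18:61100598-61132149, GRCm38), the receptor for macrophage colony-stimulating factor, carried 13863 counts, 83.5% of the 16596 counts of all 10 genes. It is also the only member that overlaps a gene on the opposite strand, sharing 873 exon bases with *Hmgxb3*, which itself had 258 counts. Reads of these genes cannot be told apart here, and for this reason *Csf1r* is kept out of the sums below. The lowest, median and highest *Csf1r* levels were 280, 405 and 423 CPM in Control, 226, 355 and 514 CPM in NaKtide, 143, 218 and 517 CPM in PNx and 295, 327 and 563 CPM in PNx+NaKtide. The PNx libraries split, with PNx 4 and 5 above and the other 4 below every Control library. *Csf1r* also moved apart from the other members: its Spearman correlations with them over the 24 libraries had a median of -0.52, and 7 of 9 were below 0, whereas the 28 pairs without *Csf1r* and *Adgre1* had a median of 0.34.

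*Adgre1* (chr17:57358691-57483527), which encodes the F4/80 antigen used to stain mouse macrophages, was barely detected. It had 13 counts in all, of which 1 fell in Control, 4 in NaKtide, 8 in PNx and 0 in PNx+NaKtide, and 6 of the 8 came from PNx 6 alone. *Mrc1* (chr2:14229392-14332057), the mannose receptor of resident macrophages, had 58 counts. Its lowest, median and highest levels were 0, 0.755 and 2.01 CPM in Control, 0, 0 and 2.58 CPM in NaKtide, 0, 1.45 and 7.91 CPM in PNx and 0, 0.277 and 1.67 CPM in PNx+NaKtide. All 4 groups overlapped, and with so few counts only PNx 6 (21 counts) stood clear of the floor by a wide margin.

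*Cd68* (chr11:69664213-69666153), a lysosomal glycoprotein of phagocytes, was the only member besides *Csf1r* whose mean was lower in PNx. Levels (lowest, median, highest) were 4.93, 8.81 and 14.0 CPM in Control, 1.97, 6.70 and 11.9 CPM in NaKtide, 0.246, 4.39 and 7.85 CPM in PNx and 3.90, 6.95 and 14.2 CPM in PNx+NaKtide. The low end of PNx was made by PNx 1, 2 and 3, with 1, 4 and 5 counts, while PNx 4, 5 and 6 lay inside the Control range. *Lyz2* (chr10:117277331-117282321), the lysozyme of myeloid cells, split in another way. Its levels were 3.50, 4.11 and 10.2 CPM in Control, 1.21, 5.43 and 26.5 CPM in NaKtide, 1.78, 4.35 and 51.3 CPM in PNx and 1.67, 5.90 and 9.40 CPM in PNx+NaKtide. The high values belonged to PNx 6 and NaKtide 6 alone, and the PNx median was close to that of Control. PNx 1, 2 and 3 (4.67, 4.03 and 5.03 CPM) lay inside the Control range, and PNx 4 and 5 (2.35 and 1.78 CPM) lay below it.

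The complement chains *C1qa* (chr4:136895917-136898803) and *C1qb* (chr4:136880129-136886187) lie close together on the minus strand of chromosome 4 and had similar totals of 254 and 338 counts. *C1qa* levels were 2.00, 3.02 and 8.35 CPM in Control, 3.60, 4.62 and 15.5 CPM in NaKtide, 0.785, 4.39 and 21.5 CPM in PNx and 1.67, 5.06 and 9.96 CPM in PNx+NaKtide. *C1qb* levels were 0.583, 4.61 and 8.03 CPM in Control, 0, 6.39 and 11.6 CPM in NaKtide, 2.35, 9.69 and 26.8 CPM in PNx and 2.23, 5.12 and 8.56 CPM in PNx+NaKtide. For *C1qb*, 4 of the 6 PNx libraries (1, 2, 3 and 6) exceeded every Control library. In PNx 1, 2 and 3, *C1qa* made up 27.6%, 26.1% and 26.5% of the counts of both chains, with exact 95% binomial intervals that together reach from 14.3% to 41.1%, against 47.7% (36.8 to 58.7) in the pooled Control libraries and 44.5% (35.7 to 53.6) in PNx 6. The Control libraries were split, however, with 26.7%, 29.4% and 29.4% in Control 2, 5 and 6 and 69.2% to 83.3% in Control 1, 3 and 4, from 5 to 26 counts each. The low shares were thus found in Control too, and the intervals cover counting error only. *C1qc*, the gene of the remaining chain, did not go with *C1qb* in PNx 1, 2 and 3, at 5.16, 4.84 and 4.28 CPM. It was at 5.52 ± 2.41 CPM in Control and 8.39 ± 8.49 CPM in PNx, with 25.6 CPM in PNx 6. Its log2 fold change was 0.61 ± 0.49 (edgeR adjusted p = 0.406). *C1qc* is counted in both the macrophage and the complement lists below, and was added after its values were seen.

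*Cd74* (chr18:60803848-60812652), the invariant chain, had the most counts after *Csf1r* (614). Its levels were 4.50, 8.69 and 14.8 CPM in Control, 1.97, 9.35 and 51.0 CPM in NaKtide, 0.492, 4.80 and 96.5 CPM in PNx and 3.33, 7.46 and 16.6 CPM in PNx+NaKtide. PNx thus held both the lowest libraries of the series (PNx 1 and 2, with 2 counts each) and the highest. *H2-Aa* (chr17:34282744-34287823), the alpha chain, was also highest in PNx 6, at a lower level. It stood at 0, 1.33 and 3.34 CPM in Control, 0, 1.34 and 16.2 CPM in NaKtide, 0, 0.770 and 46.0 CPM in PNx and 0.767, 1.66 and 4.07 CPM in PNx+NaKtide. Its low end was shared between groups, since *H2-Aa* had 0 counts in 1 Control, 2 NaKtide and 2 PNx libraries (PNx 1 and 2). Of its 202 counts, 122 came from PNx 6. *H2-Ab1* (chr17:34257689-34269419), the beta chain, did not follow its partner, with 2.37, 6.48 and 11.4 CPM in Control, 0, 7.14 and 24.5 CPM in NaKtide, 1.57, 15.9 and 57.7 CPM in PNx and 5.82, 10.1 and 29.1 CPM in PNx+NaKtide. Here PNx 1, 2 and 3 were high as well as PNx 6, and PNx 4 and 5 were not.

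**Figure D1:**
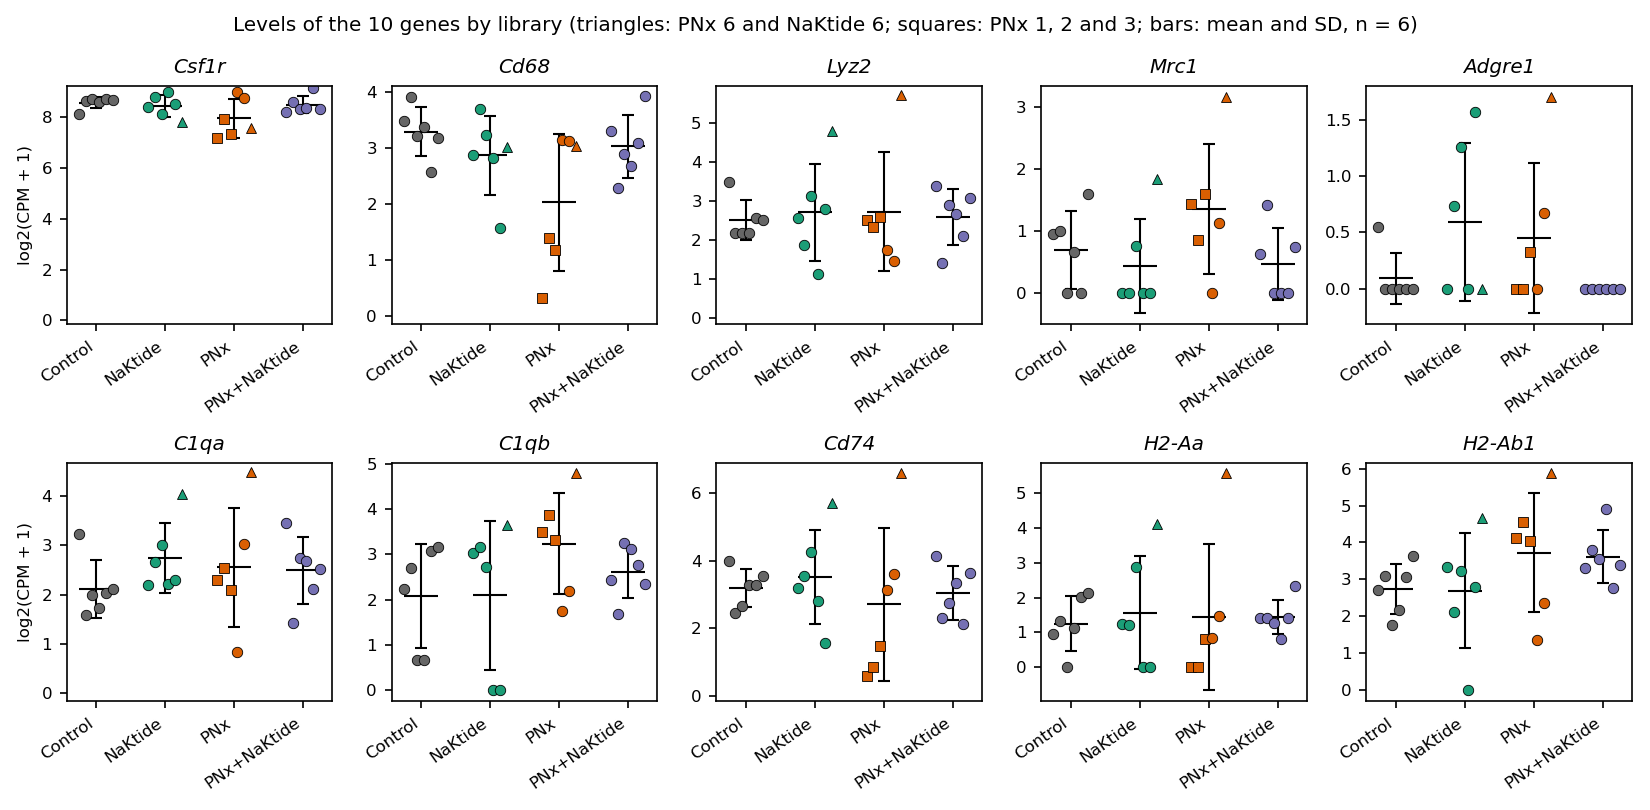
Level of each of the 10 genes in 24 libraries, as log2(CPM + 1) on the y axis, by group on the x axis; each point is 1 library, bars give the mean and SD of 6 libraries, triangles are PNx 6 and NaKtide 6, and squares are PNx 1, 2 and 3. PNx 6 is the highest library for 8 genes, from 2.26 CPM (*Adgre1*) to 96.5 CPM (*Cd74*), and PNx 1, 2 and 3 lie low for *Cd68*, *Cd74* and *H2-Aa* but high for *C1qb* and *H2-Ab1*.

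The class II chains were therefore in very unequal proportion in PNx 1, 2 and 3. These libraries held 67, 56 and 61 counts of *H2-Ab1* but 0, 0 and 3 of *H2-Aa*, so the alpha chain made up 0% (exact 95% interval 0 to 5.36), 0% (0 to 6.38) and 4.69% (0.977 to 13.1) of the counts of the pair. In PNx 6 it made up 44.4% (38.4 to 50.5), in NaKtide 6 39.7% (27.6 to 52.8) and in the pooled Control libraries 20.5% (12.4 to 30.8). Single Control libraries ran from 0% (Control 3, 0 to 60.2, from 4 counts) to 29.4% (Control 5, 10.3 to 56.0, from 17 counts). The intervals cover counting error only and not the spread between mice. PNx+NaKtide 4, with 38 counts of *H2-Ab1* and 1 of *H2-Aa* (2.56%, 0.0649 to 13.5), resembled PNx 1, 2 and 3 in this respect. *H2-Eb1*, another class II beta chain gene, went with *H2-Aa* and not with *H2-Ab1*, with 4, 8 and 15 counts in PNx 1, 2 and 3. Over the 24 libraries the Spearman correlation was 0.70 between *Cd74* and *H2-Aa*, 0.24 between *H2-Aa* and *H2-Ab1*, 0.04 between *Cd74* and *H2-Ab1*, and 0.75 between *C1qb* and *H2-Ab1*. Without the 5 libraries that stand apart these were 0.43, 0.47, 0.12 and 0.53. These values are descriptions over libraries that share depth and composition effects. In PNx 1, 2 and 3 the B cell list stood at 84.8, 73.8 and 46.8 CPM over 7 genes, all with counts, against 1.75 to 12.0 CPM in Control and 7.91 CPM in PNx 6, and it lay between 20.7 and 32.9 CPM in PNx+NaKtide 2, 3 and 4. The T cell list was at 18.9, 23.4 and 12.8 CPM in PNx 1, 2 and 3, against 2.00 to 5.55 CPM in Control. The dendritic cell list was at 47.9, 48.8 and 34.7 CPM there, against 10.5 to 18.1 CPM in Control, but it was also at 61.4 CPM in PNx 6 and 45.2 CPM in NaKtide 6. Of the 7 genes in each list, 2 of the B cell list and 1 of the T cell list overlap a gene on the opposite strand. In the dendritic cell list 0 do. These sums may therefore hold reads of other genes. The part of these cells or of the strand of the counts in the unequal proportion was not tested.

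**Figure D2:**
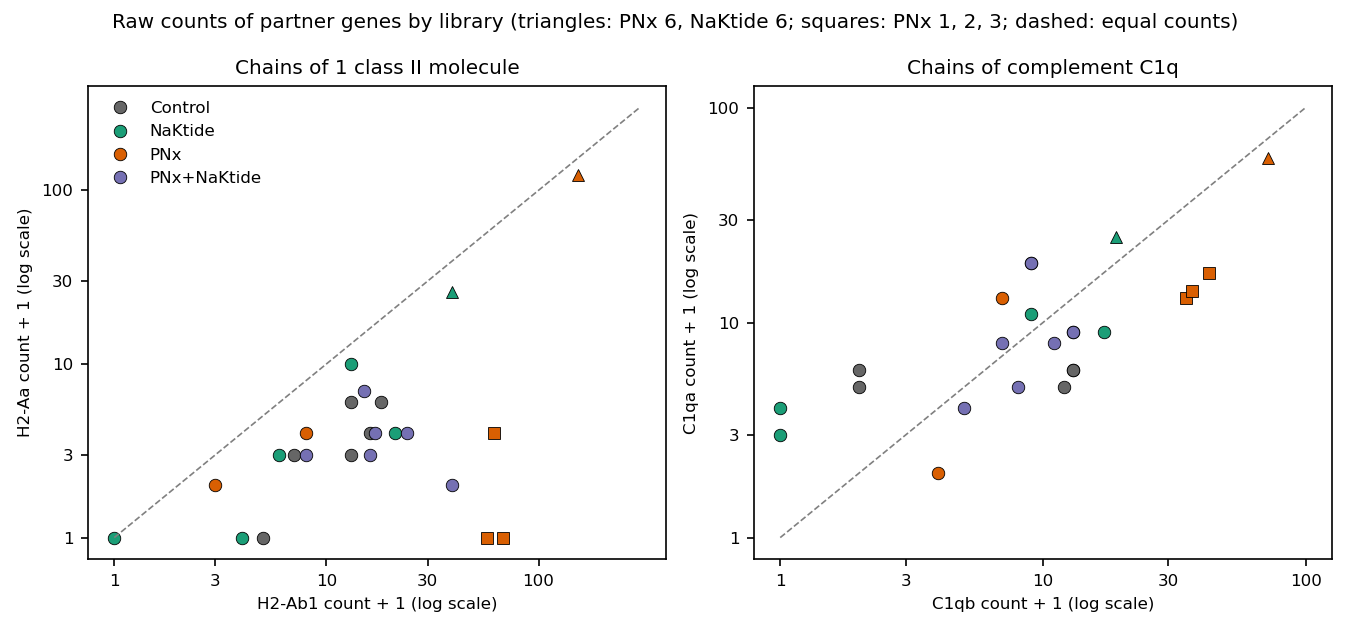
Raw counts plus 1 of *H2-Aa* against *H2-Ab1* (left) and of *C1qa* against *C1qb* (right) on log axes, 1 point per library, with a dashed line of equal counts; points of equal counts coincide. PNx 1, 2 and 3 (squares) hold 56 to 67 counts of *H2-Ab1* with at most 3 of *H2-Aa*, and PNx 6 and NaKtide 6 (triangles) lie nearest to the line among libraries with many counts.

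FPKM scales counts by gene length but does not remove the limit on the strand of the counts given above. The order of genes below therefore describes the deposited values only. The median FPKM over the 24 libraries was 69.7 for *Csf1r*, the only member with an opposite-strand overlap. It was between 3.52 and 5.41 for *Cd68*, *Cd74*, *C1qb*, *H2-Ab1*, *C1qa* and *Lyz2*, in falling order. It was 0.650 for *H2-Aa*, 0.0891 for *Mrc1* and 0 for *Adgre1*. The 6 genes in the middle had ranges over libraries that contained each other's medians. The coefficient of variation of the CPM was lowest for *Csf1r* (31.6%) and *Cd68* (51.6%), between 82.9% and 164% for *C1qa*, *C1qb*, *H2-Ab1*, *Lyz2*, *Cd74* and *Mrc1*, and highest for *Adgre1* (204%) and *H2-Aa* (239%).

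Much of this variation came from a pair of libraries. The CPM summed over the 9 members other than *Csf1r* was 317 in PNx 6 and 155 in NaKtide 6, and between 16.9 and 63.5 in the other 22 libraries. PNx 6 was the highest library for *Adgre1*, *Mrc1*, *Lyz2*, *C1qa*, *C1qb*, *Cd74*, *H2-Aa* and *H2-Ab1*, and NaKtide 6 came next for *Mrc1*, *Lyz2*, *C1qa*, *Cd74* and *H2-Aa*. For *Cd68* both were unremarkable at 7.16 and 7.11 CPM. Over all genes tested, 18.1% were highest in PNx 6 and 6.71% in NaKtide 6. Other marker lists were high in the same libraries: fibroblast markers were at 476 and 267 CPM (at most 88.6 elsewhere), endothelial markers at 440 and 74.9 (at most 24.9 elsewhere) and erythrocyte markers at 1630 and 245 (at most 120 elsewhere). The mt-Nd6 ratio was the lowest of all in PNx 6 (21) and 56.7 in NaKtide 6. *Actb* was highest in PNx 6 (233 CPM, next 100). When the sum of the 9 members was divided by *Actb* of the same library, a scaling chosen after the data had been seen, PNx 6 (1.36) fell below PNx 2 (1.71), NaKtide 6 (1.66) and Control 2 (1.55), and the group means were 0.891 ± 0.334 in Control, 0.756 ± 0.453 in NaKtide, 0.954 ± 0.477 in PNx and 0.850 ± 0.239 in PNx+NaKtide (SD, n = 6). On this scale the 4 groups overlapped widely, and without the scaling they did so too. The lowest, median and highest unscaled sums were 23.1, 39.5 and 55.2 CPM in Control and 16.9, 42.1 and 155 CPM in NaKtide. They were 23.5, 39.0 and 317 CPM in PNx and 29.5, 50.6 and 62.9 CPM in PNx+NaKtide. *Actb* may itself hold only part of its reads.

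**Figure D3:**
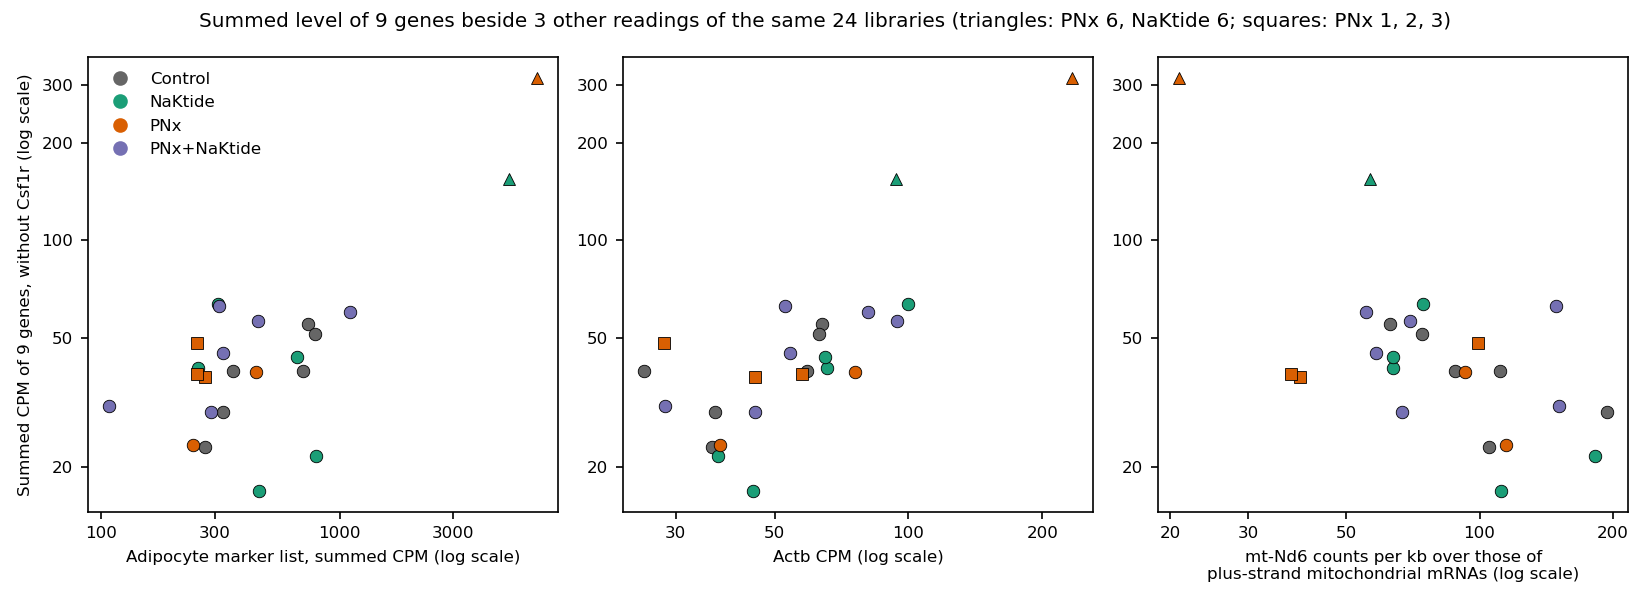
Summed CPM of the 9 members without *Csf1r* (y axis, log scale) against the summed CPM of 12 adipocyte markers, the CPM of *Actb* and the mt-Nd6 ratio (x axes, log scale), 1 point per library. PNx 6 (317 CPM) and NaKtide 6 (155 CPM), shown as triangles, lie far above the other libraries, at the highest adipocyte sums; PNx 6 also has the highest *Actb* and the lowest mt-Nd6 ratio.

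In PNx against Control, no member passed the test and the values ran in both directions. With edgeR at an adjusted p under 0.1, 0 of the 10 members were called, where 0.0766% of all genes tested were (20 genes, all lower). At an unadjusted p under 0.05, 2 members passed (*Cd68* and *H2-Ab1*) where 25.4% of all genes did. *H2-Ab1* had the lowest adjusted p, at 6.28 ± 3.23 CPM in Control and 19.6 ± 20.2 CPM in PNx (SD, n = 6), which fitted at 1.65 ± 0.68 (log2 fold change ± SE; edgeR adjusted p = 0.154). Its PNx mean without PNx 6 was 12.0 ± 8.85 CPM. *Cd68* stood at 9.13 ± 2.98 CPM in Control and 4.31 ± 3.62 CPM in PNx, a log2 fold change of -1.14 ± 0.55 (edgeR adjusted p = 0.195), and all 6 PNx libraries lay below the Control mean. *C1qb* had a log2 fold change of 1.36 ± 0.67 (edgeR adjusted p = 0.201) from 4.30 ± 3.25 to 11 ± 8.83 CPM. *H2-Aa* had the highest fitted log2 fold change, 2.29 ± 1.15, yet only 2 of the 6 PNx libraries lay above the Control mean of 1.67 ± 1.30 CPM.

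The other members gave log2 fold changes of -0.46 ± 0.31 (*Csf1r*), 0.90 ± 0.58 (*C1qa*), 1.17 ± 0.87 (*Cd74*), 1.18 ± 0.71 (*Lyz2*) and 1.56 ± 0.90 (*Mrc1*), with edgeR adjusted p between 0.255 and 0.372. For *Adgre1* the ratio of PNx to Control, from 8 counts and 1 count, was 5.30 with an exact 95% counting interval of 0.710 to 235. Over the 10 members 8 fitted values were above 0 and 2 below, with a median of 1.27, beside a median of 0.36 and 60.7% above 0 for all genes. Without PNx 6 the median of the members was -0.13 and that of all genes 0.02, and *Lyz2* (-0.46), *Cd74* (-1.09) and *H2-Aa* (-1.41) changed sign. Without PNx 4, *Cd68*, *Csf1r* and *H2-Ab1* were called, with edgeR adjusted p of 0.0935, 0.0900 and 0.0618, where 27.6% of all genes were, and without PNx 5 *H2-Ab1* alone (22.9% of all genes). DESeq2 called *C1qa*, *C1qb* and *H2-Ab1* (DESeq2 adjusted p = 0.0980, 0.0319 and 0.0215), where it called 29.7% of all genes. It gave *Adgre1* no adjusted p. limma voom with sample weights called 5 members, *Cd68*, *Csf1r* and *Cd74* lower and *C1qb* and *H2-Ab1* higher, where it called 63.8% of all genes. With DESeq2 size factors in the edgeR fit the median moved to 1.64 for the members and to 0.76 for all genes, and *C1qb* and *H2-Ab1* were called, where 33.3% of all genes were (7971 higher and 725 lower). For each tool the members' share is to be read against these shares of all genes.

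In PNx+NaKtide against PNx no member passed the test either. This comparison shares its 6 PNx libraries with the comparison above, so the values of both are set side by side and not read as separate observations. With edgeR 0 of the 10 members were called, as were 0.0% of all genes (0 genes). At an unadjusted p under 0.05, 2 members (*Adgre1* and *Mrc1*) and 12.7% of all genes passed. *Mrc1* stood at 2.27 ± 2.85 CPM in PNx and 0.484 ± 0.656 CPM in PNx+NaKtide (SD, n = 6), which fitted at -2.02 ± 0.96 (log2 fold change ± SE; edgeR adjusted p = 0.388). Its level in all 6 PNx+NaKtide libraries was below the PNx mean, but the groups overlapped, and the PNx mean without PNx 6 was 1.15 ± 0.793 CPM. *Adgre1*, with 0 counts in PNx+NaKtide, was at least 1.49-fold lower than in PNx, taking 3 counts over the group as the floor. This bound rests on PNx 6, without which PNx held 2 counts, below the floor. *Cd68* went the other way, from 4.31 ± 3.62 to 7.71 ± 3.63 CPM, with a log2 fold change of 0.89 ± 0.56 (edgeR adjusted p = 0.448).

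For the other class II and complement genes the log2 fold changes were -0.43 ± 0.58 (*C1qa*), -1.02 ± 0.67 (*C1qb*), -1.23 ± 0.88 (*Cd74*), -2.10 ± 1.15 (*H2-Aa*) and -0.63 ± 0.66 (*H2-Ab1*). For *Csf1r* and *Lyz2* they were 0.40 ± 0.31 and -1.04 ± 0.71. Their edgeR adjusted p lay between 0.419 and 0.691. The median over the 10 members was -1.03, or -0.83 with *Adgre1* at its bound, beside -0.37 for all genes. Without PNx 6 it was 0.33, and *Lyz2* (0.60), *C1qa* (0.35), *Cd74* (1.02), *H2-Aa* (1.60) and *H2-Ab1* (0.06) were then above 0. DESeq2 called 0 of the 8 members to which it gave an adjusted p, and 5.8% of all genes. It gave none to *Adgre1* and *Mrc1*. voom called 5 members, *Mrc1* lower and *Cd68*, *Csf1r*, *Cd74* and *H2-Aa* higher, among 44.0% of all genes.

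**Figure D4:**
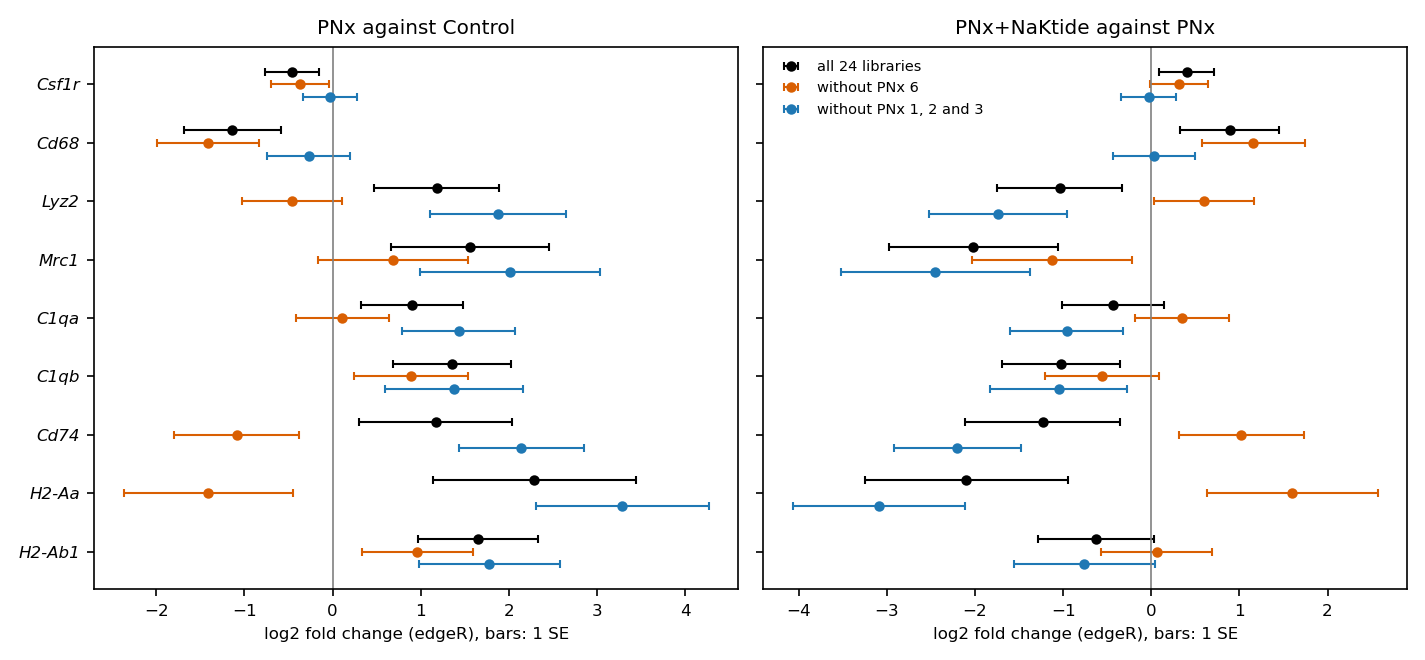
Fitted log2 fold change (edgeR, x axis) of 9 members in PNx against Control (left) and PNx+NaKtide against PNx (right), with bars of 1 SE, from all 24 libraries (black), without PNx 6 (orange) and without PNx 1, 2 and 3 (blue); *Adgre1* is left out because its fitted value is no bound. *Lyz2*, *Cd74* and *H2-Aa* lie on opposite sides of 0 with and without PNx 6 in both comparisons, and *Cd68* moves from -1.14 to -0.27 (left) when PNx 1, 2 and 3 are left out.

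The low values of *Cd68* in PNx rested on other libraries than the high values of *H2-Aa* and *Cd74*, whereas *Csf1r* was low in PNx 1, 2 and 3 and also in PNx 6 (189 CPM). Leaving out PNx 1, 2 and 3 brought *Cd68* to -0.27 ± 0.47 and *Csf1r* to -0.03 ± 0.31 on the log2 scale in PNx against Control. The same step raised *H2-Aa* to 3.29 ± 0.98 and *Cd74* to 2.14 ± 0.71, which then rested on PNx 6 among 3 remaining libraries (edgeR adjusted p = 0.372 and 0.374). In PNx+NaKtide against PNx, *Cd68* was then at 0.03 ± 0.47.

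NaKtide in sham mice and nephrectomy under NaKtide gave no called member either. In NaKtide against Control 0 of 10 members and 0.0% of all genes were called by edgeR, and 0 members and 3.95% of all genes had an unadjusted p under 0.05. DESeq2 called 0 members and 0.0115% of all genes, and voom 0 members and 0.00766%. Without *Adgre1* the log2 fold changes lay between -0.35 (*Cd68*) and 1.41 (*H2-Aa*), and those of *Lyz2* (0.70), *C1qa* (0.83), *Cd74* (0.89) and *H2-Aa* (1.41) belonged to genes that were highest in NaKtide 6. *Lyz2* was at 8.15 ± 9.28 CPM in NaKtide with this library and at 4.48 ± 2.57 CPM (n = 5) without it, beside 5.06 ± 2.60 CPM in Control. In PNx+NaKtide against NaKtide 0 members and 0.0% of all genes were called, with 1 member (*Adgre1*, 0 against 4 counts) and 4.09% of all genes at an unadjusted p under 0.05, and values between -1.22 (*H2-Aa*) and 0.54 (*H2-Ab1*) for the rest. DESeq2 called 0 members and 0.00766% of all genes, and voom 0 members and 0.0%.

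The interaction tests whether nephrectomy acted differently with NaKtide than with GFP. No member passed (edgeR, 0 of 10 and 0.0% of all genes), with 2 members (*Adgre1* and *H2-Aa*) and 9.27% of all genes at an unadjusted p under 0.05. The members' log2 values without *Adgre1* lay between -3.51 ± 1.64 (*H2-Aa*, edgeR adjusted p = 0.528) and 1.24 ± 0.78 (*Cd68*, edgeR adjusted p = 0.614). DESeq2 called 0 of the 8 members to which it gave an adjusted p, and 0.36% of all genes. The voom fit called *Cd68* and *Csf1r* where it called 25.5% of all genes.

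The members were set beside 3 longer lists of related genes. Of 35 other macrophage genes all had counts and 33 were tested; 0 were called in either direction in any comparison (edgeR), and 6 were higher and 1 lower at an unadjusted p under 0.05 in PNx against Control, where 25.4% of all genes passed (4838 higher and 1798 lower). Their median log2 fold change was 0.61 there, -0.30 without PNx 6, and -0.77 in PNx+NaKtide against PNx. The most abundant were *Folr2*, *Gpnmb* and *Aif1*. *Folr2*, a folate receptor of resident macrophages that overlaps a gene on the opposite strand, was at 53.9 ± 22.3 CPM in Control and 29.3 ± 9.41 CPM in PNx (log2 fold change -0.88 ± 0.33, edgeR adjusted p = 0.141). *Gpnmb*, a lysosomal glycoprotein of lipid-laden macrophages, fitted at -1.0 ± 0.54, and *Aif1*, which encodes the macrophage protein IBA1, at 1.28 ± 0.69. *Aif1* was highest in PNx 1, 2 and 3 (46.2, 34.3 and 58.9 CPM), where *Cd68* was lowest, so these macrophage genes did not keep 1 order over the libraries.

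Of 18 other genes of class II presentation 16 had counts and 15 were tested, with 0 called by edgeR in any comparison and 0 higher and 2 lower at an unadjusted p under 0.05 in PNx against Control (25.4% of all genes). Their median was 0.18, beside -0.74 without PNx 6, and -0.03 in PNx+NaKtide against PNx. *Rfxank* and *Rfx5*, subunits of the factor that binds class II promoters, led the list and both overlap genes on the opposite strand, with 308 ± 53.1 against 154 ± 122 CPM and 58.0 ± 13.2 against 87.2 ± 40.8 CPM in Control and PNx. *H2-Eb1* was at 10.7 ± 4.19 and 13.8 ± 21.6 CPM and reached 57.3 CPM in PNx 6. *Ciita*, the master activator of class II genes, overlaps *Dexi* on the opposite strand and was singled out after its values were seen. It was at 8.60 ± 2.89 CPM in Control and 3.74 ± 1.92 CPM in PNx (log2 fold change -1.24 ± 0.44, edgeR adjusted p = 0.137). *Ciita* had 7 counts in each of PNx 1, 2 and 3 (1.72, 2.82 and 1.76 CPM), the libraries in which *H2-Ab1* was high. In the same libraries *Rfx5* stood at 117, 151 and 91.4 CPM and *Rfxank* at 38.1, 92.3 and 51.1 CPM.

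Of 13 other complement genes all had counts and 12 were tested, with 0 called by edgeR in any comparison and 1 higher and 1 lower at an unadjusted p under 0.05 in PNx against Control (25.4% of all genes). Their median was 1.13, beside -0.66 without PNx 6, and -1.19 in PNx+NaKtide against PNx. *Cfd* (adipsin), which adipocytes secrete, was at 113 ± 53.4 CPM in Control and 190 ± 370 CPM in PNx, with 941 CPM in PNx 6 and 14.0, 3.23 and 14.9 CPM in PNx 1, 2 and 3. *C3*, the central component, was at 16.3 ± 11.8 and 33.9 ± 59.4 CPM, with 154 CPM in PNx 6. *C2*, which overlaps a gene on the opposite strand, was at 45.0 ± 13.3 and 25.3 ± 19.7 CPM. PNx 6 was the highest library for 18 of the 35 macrophage genes, 8 of the 18 class II genes and 8 of the 13 complement genes, beside 18.1% of all genes tested. Some of the most abundant genes were not among them, with *Folr2* at 15.8 CPM in PNx 6 (median 40.4 over the libraries), *Gpnmb* at 4.52 (median 17.8) and *Rfxank* at 147 (median 252).

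The genes whose pattern over the 24 libraries was most like the mean standardised log2 CPM of the 10 members, among 14037 genes of at least 1 CPM, were *Taldo1* (Spearman rho 0.92), *Actr1b* (0.90), *Ndrg1* (0.90), *G6pdx* (0.89), *Fth1* (0.89), *Calu* (0.89), *Ppa1* (0.89) and *Rbck1* (0.88). *Taldo1* and *G6pdx* encode enzymes of the pentose phosphate pathway, and *Fth1* the heavy chain of ferritin. *Taldo1* was at 109 CPM in PNx 6 and 67.2 CPM in NaKtide 6, beside a median of 16.6 CPM. Without the 5 libraries that stand apart the 8 values of rho were 0.82 to 0.89. The sum of the 9 members correlated with *Actb* at a Spearman rho of 0.70 and with the mt-Nd6 ratio at -0.51, and *Csf1r* with that ratio at 0.65.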

How the data were processed

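RNA from adipose tissue of 24 mice (4 groups of 6, groups and replicate numbers from the labels) was sequenced as paired 50 bp reads of stranded mRNA libraries. Per the labels and methods, the authors trimmed reads with Trimmomatic 0.38, aligned them to GRCm38 with HISAT2 2.1.0 and counted them per gene with GenomicAlignments 1.16.0. They deposited raw counts, normalized signal (the count divided by 1 factor per library, 0.292 to 1.77) and FPKM, computed from the normalized values. For the annotation release and the strand setting of the counting, nothing is given in the sources used here.

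The 10 genes and all lists were chosen with earlier results of these data known. Symbols and positions came from GENCODE M21 (GRCm38), in which 99.9% of 54232 identifiers were found. Genes with more than 10 counts over the 24 libraries were tested with edgeR 4.0.16 in R 4.3.3 (TMM scaling, robust quasi-likelihood fit of 4 group means), and p was adjusted by Benjamini-Hochberg over all 26116 genes with a threshold of 0.1. Log2 CPM used a prior count of 2. The SE of an edgeR log2 fold change was worked back from its test, as its absolute value divided by the square root of the F statistic. The p-values measure the spread between libraries of separate mice. By rule, the text names the 10 members, the 3 genes of highest mean CPM in each related list, any that passed, and the 8 genes of most similar pattern. From the related lists *Ciita* and *C1qc* were named outside this rule. Alternatives were DESeq2 size factors, library size, no filter, filterByExpr, DESeq2 1.42.0, limma 3.58.1 voom with sample weights, compared groups only, a replicate block, a threshold of 0.05, log2(FPKM + 1) or log2(FPKM + 0.1) in limma, and leaving out libraries. A fit on genes without an opposite-strand overlap and the scaling to *Actb* were chosen after seeing the data. No pair of libraries of the same group agreed within sampling noise (lowest chi-square per degree of freedom 1.567). Pairs across groups were not compared in this way.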

Additional observations from a re-analysis of the deposited data

Results flagged for a closer look

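In each group of 6 libraries the highest and lowest CPM of each member were compared with the other 5. Of 39 such groups, 19 held a library whose gap to its neighbour took up most of the range. Chance gives about 1 in 20 for values of normal spread, but several of these groups hold very few counts, where a single count can do so, and the groups share libraries, so the number is only a description. PNx 6 was that library for *H2-Aa* (46.0 CPM, next 1.78), *Lyz2* (51.3, next 5.03), *Cd74* (96.5, next 11.3), *Mrc1* (7.91, next 2.01), *Adgre1* (2.26, from 6 counts), *C1qa* (21.5, next 7.12) and *H2-Ab1* (57.7, next 22.6). NaKtide 6 was that library for *Cd74* (51.0, next 18.1), *Lyz2* (26.5, next 7.67), *Mrc1* (2.58, from 4 counts), *C1qa* (15.5, next 6.98) and *H2-Ab1* (24.5, next 9.0). The adipocyte, fibroblast, endothelial and erythrocyte lists were highest in the same libraries, as given above, and their part in these values was not tested.

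The remaining 7 cases were spread over 4 libraries. Control 1 was high for *Lyz2* (10.2), *C1qa* (8.35) and *Adgre1* (0.464, a single count) and low for *Csf1r* (280, next 387). PNx+NaKtide 4 was high for *H2-Ab1* (29.1, next 12.8), PNx+NaKtide 5 for *Csf1r* (563, next 389) and PNx+NaKtide 6 for *H2-Aa* (4.07, from 6 counts).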

How the results depend on the processing

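With all 24 libraries, TMM scaling and the filter of more than 10 counts, no member was called by edgeR in any of 5 comparisons. In PNx against Control the number called was 2 with DESeq2 size factors, 1 with library size scaling (*H2-Ab1*, beside 15.7% of all genes), 1 with filterByExpr (*H2-Ab1*, beside 17.9% of 12050 genes; *Adgre1*, *Mrc1* and *H2-Aa* were then not tested), 3 with DESeq2 and 5 with voom, and from 0 to 3 when 1 library was left out (3 without PNx 4). Over all genes the number called in this comparison, 20 with edgeR, was 1 with no filter, 0 with the compared groups only, 1 with the replicate block, 8696 with DESeq2 size factors, 5497 without both sixth libraries and 3782 without PNx 6, and calls therefore depend on the setting far beyond the members. The number of members called with voom was 5 in PNx+NaKtide against PNx and 2 for the interaction, and the other alternatives called 0 members in either. In each of these DESeq2 gave an adjusted p to 8 members only. The median log2 fold change of the 10 members in PNx against Control, 1.27, was -0.08 with voom, 0.50 with the replicate block, 0.32 with log2(FPKM + 1) and -0.13 without both sixth libraries, and lay between -0.13 and 1.47 when 1 library was left out. In PNx+NaKtide against PNx, where it was -1.03, it was 0.19, -0.18, -0.25 and 0.33 under the same alternatives, -0.34 with log2(FPKM + 0.1), and between -1.23 and 0.33 when 1 library was left out.

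Among the refitted values of single members 444 kept their direction and their side of the threshold, 18 kept their direction and passed it, and 30 changed sign; the cause was not tested beyond what each alternative leaves out. In PNx against Control voom gave -0.18 for *Adgre1*, -2.34 for *Cd74* and -1.49 for *H2-Aa*. *Cd74* was at -0.08 with the replicate block, -0.17 with log2(FPKM + 1) and -0.45 with log2(FPKM + 0.1). Without both sixth libraries *Lyz2* was at -0.45, *Cd74* at -1.10 and *H2-Aa* at -1.41. Leaving out 1 library at a time gave -0.46 to 1.52 for *Lyz2*, -1.09 to 1.43 for *Cd74* and -1.41 to 2.59 for *H2-Aa*, with PNx 6 left out at the lower end. In PNx+NaKtide against PNx voom gave 0.20 for *Adgre1*, 0.18 for *C1qa*, 2.14 for *Cd74* and 1.85 for *H2-Aa*. *Cd74* was at 0.11 with log2(FPKM + 1) and 0.37 with log2(FPKM + 0.1), and *H2-Aa* at 0.54 with the latter. *Csf1r* was at -0.03 without PNx 1, 2 and 3. Without both sixth libraries *Lyz2* was at 0.59, *C1qa* at 0.35, *Cd74* at 1.03, *H2-Aa* at 1.61 and *H2-Ab1* at 0.05. Leaving out 1 library at a time gave -1.26 to 0.60 for *Lyz2*, -0.74 to 0.35 for *C1qa*, -1.55 to 1.02 for *Cd74*, -2.46 to 1.60 for *H2-Aa* and -1.04 to 0.06 for *H2-Ab1*, with PNx 6 left out at the upper end.

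In the fit on genes without an opposite-strand overlap, chosen after the data had been seen, 0 of 9 members were called and their median was 1.25 in PNx against Control and -0.93 in PNx+NaKtide against PNx. Replicate numbers were not taken as pairs, since the labels give no shared source. Deviations of same-numbered libraries of different groups correlated above 0.1 in 19 of 36 pairs (-0.592 to 0.712, median 0.124). For other numbers this held in 75 of 180 pairs, with a median of -0.055. For 10 of 24 libraries the best partner bore the same number, a hint from the data and not from the design. The replicate block left 0 members called in every comparison. Depth limits *Adgre1*, *Mrc1* and *H2-Aa* most, since 3 counts reach 5.91 CPM in the shallowest library.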
